A study of Mus musculus with 12 samples.

Results

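The histone genes described here were the 74 of 20661 protein-coding autosomal genes of the RefSeq GRCm38 table whose symbols begin with H1f, H2ac, H2bc, H3c, H4c, H2az, H2ax or H3f followed by a number. Of these, 53 lie in the cluster on chromosome 13, 10 in the cluster on chromosome 3 and 11 singly, where a cluster is a run of at least 3 members whose neighbours are at most 2 Mb apart. On chromosome 11 only H3f4 of a small histone locus carries such a symbol, so it counts as single; its neighbours H2aw and H2bu2 are named otherwise and are no members. By family they comprised 10 H1 genes, 17 H2A, 16 H2B, 12 H3 and 12 H4 genes, 4 genes of the H3f series, 2 of H2A.Z and the H2A.X gene. ATAC-seq libraries, made with a transposase that inserts into open DNA, came from mouse bone marrow of the C57BL/6 strain, sorted as CD45.2+ cells. There were 4 groups of 3 libraries. The Control genotype was CD45.2(+) alone. The other genotypes were CD45.2(+) with a leukaemia fusion gene: BRD9-NUTM1 in the group called BN1, MLL-AF9 in MA9 and MLL-ENL in ME. Each sample held 150000 sorted cells. The labels gave no age and did not say how the fusions were introduced, whether host cells remained, or whether the libraries of a group came from separate animals, so a p-value here measures only the spread between these libraries.

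Core histones (H2A, H2B, H3 and H4) wrap DNA into nucleosomes, and H1 binds the DNA between them. Most histone genes are replication-dependent: they are short, lack introns, lie in clusters, often as an H2A gene and an H2B gene read in opposite directions from a shared promoter, and are transcribed mainly in S phase. The replication-independent variants, among them H3.3 (H3f3a and H3f3b), H2A.Z (H2az1 and H2az2) and H1.0 (H1f0), lie singly, and are expressed through the cell cycle or in cells that have stopped dividing.

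The data were 1 list of peaks per library, with 25541 to 28023 autosomal peaks in Control, 3011 to 4258 in BN1, 31968 to 33588 in MA9 and 8546 to 9663 in ME. The lists hold no read numbers, so depth is unknown, and a gene without a peak is one that was not called, whether open or not. In sorted cell mixtures, fewer cells with an open site and less opening per cell cannot be told apart. A gene was called where a peak lay within 1 kb of either end of its span. The genes were named by symbol, and the family was chosen by earlier calls of gene-end peaks in these same 12 lists, so the counts of calls below are a description with no test. A gene was lost where all 3 libraries of the second group and none of the first had such a peak, and gained in the reverse case.

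The letters of a few promoters show what the peaks at the clusters covered. They are from RefSeq GRCm38.p6, 5′ to 3′ on the strand of the gene, up to 250 bases before the start site, and capitals mark, on either strand, the CCAAT box, the TATA box (TATAAA), the octamer (ATTTGCAT), the GC box (GGGCGG) or an E2F-type site (TTTGGCGC and TTTCGCGC and TTCCCGCC). H2ac7, H2bc7, H3c4 and H4c11 are shown because they had the strongest Control peak among the H2A, H2B, H3 and H4 genes lost in BN1, and H1f2 and H4c1 because they were the strongest called in every library. These calls are of gene ends, and at H1f2 only 1 BN1 library had a peak within 0.5 kb of the start site. H2ac7 and H2bc7 share 1 stretch, given on the H2ac7 strand.
H2ac7 and H2bc7, chr13:23574208-23574380, + strand: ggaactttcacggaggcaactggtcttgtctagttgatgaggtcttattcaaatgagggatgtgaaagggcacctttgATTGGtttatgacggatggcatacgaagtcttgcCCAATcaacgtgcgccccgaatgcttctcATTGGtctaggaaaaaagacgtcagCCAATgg
H3c4, chr13:23575513-23575762, + strand: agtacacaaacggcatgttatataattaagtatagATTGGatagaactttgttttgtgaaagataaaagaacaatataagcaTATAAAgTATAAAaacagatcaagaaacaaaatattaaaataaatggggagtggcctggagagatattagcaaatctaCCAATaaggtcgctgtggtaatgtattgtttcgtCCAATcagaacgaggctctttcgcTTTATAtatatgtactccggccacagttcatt
H4c11, chr13:21734784-21735033, + strand: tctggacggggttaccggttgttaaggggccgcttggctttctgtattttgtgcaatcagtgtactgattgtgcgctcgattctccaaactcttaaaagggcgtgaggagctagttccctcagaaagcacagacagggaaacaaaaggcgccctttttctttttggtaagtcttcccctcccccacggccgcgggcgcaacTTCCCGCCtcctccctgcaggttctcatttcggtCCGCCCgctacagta
H1f2, chr13:23738557-23738806, + strand: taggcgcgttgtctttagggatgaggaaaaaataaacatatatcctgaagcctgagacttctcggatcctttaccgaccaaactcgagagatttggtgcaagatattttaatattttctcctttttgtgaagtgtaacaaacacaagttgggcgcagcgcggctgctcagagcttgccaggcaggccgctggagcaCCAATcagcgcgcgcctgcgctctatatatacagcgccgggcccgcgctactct
H4c1, chr13:23761250-23761499, - strand: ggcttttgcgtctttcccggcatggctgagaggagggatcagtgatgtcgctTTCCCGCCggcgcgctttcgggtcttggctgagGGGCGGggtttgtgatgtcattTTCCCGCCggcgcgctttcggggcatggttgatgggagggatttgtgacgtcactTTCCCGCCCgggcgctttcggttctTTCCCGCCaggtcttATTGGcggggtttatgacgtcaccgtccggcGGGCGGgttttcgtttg
The stretch between H2ac7 and H2bc7 holds CCAAT 4 times, 173 bases in all. H4c1 holds TTCCCGCC 4 times, and 1 of these matches overlaps a GGGCGG match.

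Promoter entries were matched for 68 members (69 entries), and not for H2ax, H2bc21, H2bc4, H3c1, H3c7 and H4c14. CCAAT, the letters bound by NF-Y, was in 79.7% of the member entries and 35.3% of all 20084 promoters, and in all 17 H2A and all 15 H2B entries but 3 of 11 H4 entries. TATAAA was in 42.0% against 11.7%. ATTTGCAT, the octamer bound by Oct1 (Pou2f1), was in 20.3% against 1.59%, and its 14 matches were in 6 H2A, 7 H2B and no H1, H3 or H4 entries of the replication-dependent series, with the other match in an entry outside those families. The E2F-type letters TTTCGCGC were in 10.1% against 0.378%, all in H2A or H2B entries, and TTCCCGCC was in 7.25% against 2.47%, all in H4 entries. TTTGGCGC was in 0 member entries (0.508% of all), and GGGCGG, the GC box, was in 33.3% against 43.4%. Of the 29 entries of genes lost in BN1, CCAAT was in 24, TATAAA in 15, the octamer in 9 and TTCCCGCC in 4. Of the 6 entries of genes called in all 12 libraries, CCAAT was in 5, TATAAA in 1, the octamer in 1, TTCCCGCC in 1 and GGGCGG in 4. A match is a description of letters, not of binding.

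In Control the called histone genes carried some of the strongest peaks of each library. In all 3 Control libraries, 44 members (59.5%) were called, beside 43.0% of all genes, and per library 44 to 45 were called. They comprised 39 members on chromosome 13 and 5 single genes, and none on chromosome 3. By family, all 3 libraries called 8 of 17 H2A, 10 of 16 H2B, 8 of 12 H3, 9 of 12 H4 and 5 of 10 H1 genes, both H2A.Z genes and both H3.3 genes, H3f3a and H3f3b. Divergent and neighbouring genes shared peaks, so the members are not independent: the peaks merged into 37 regions, of which 16 held 2 or more members.

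The region with the highest Control signal held 5 members, H2ac8, H2bc8, H2bc7, H2ac7 and H3c4, at chr13:23570624-23576950. Its peak ranked 6, 13 and 6 in the 3 Control libraries by deposited signal, and was 5657, 4337 and 6266 bp wide. In MA9 the strongest peak at H2ac7 ranked 201, 233 and 204 and was 1947, 1761 and 2166 bp wide, and in ME it ranked 448, 448 and 495 and was 1140, 1141 and 1107 bp wide. No BN1 library had a peak there, and the Control, MA9 and ME values did not overlap. Each of those values comes from a list of different length, so the ranks show no change by themselves.

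**Figure D1:**
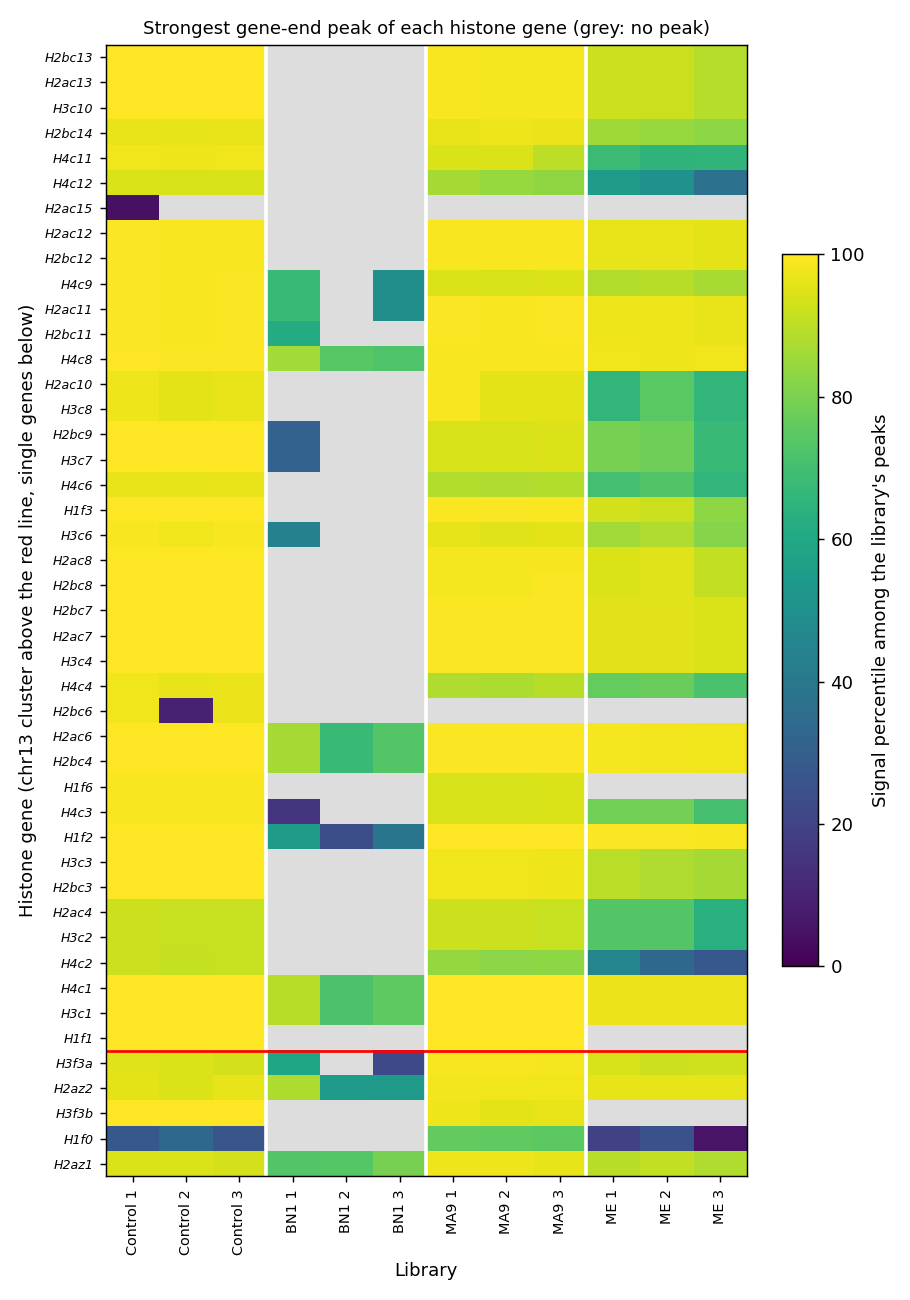
Signal percentile among a library's own peaks (colour, 0 to 100) of the strongest gene-end peak of each of the 45 histone genes called in at least 1 library (rows) in the 12 libraries (columns). Grey cells had no peak: grey fills most of the chromosome 13 rows in BN1, while Control and MA9 are nearly complete.

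The other regions among the 10 strongest in Control were those of H1f2 (mean percentile 99.905), H4c1 with H3c1 and H1f1 (99.845), H2bc13 with H2ac13 and H3c10 (99.835), H3c3 with H2bc3 (99.774), H2bc9 with H3c7 (99.77), H3f3b (99.747), H2ac6 with H2bc4 (99.704), H1f3 (99.701) and H4c8 (99.579). All 10 regions had a peak in every MA9 and ME library. In BN1, 5 of the regions had a peak in 3 libraries: those of H1f2, H4c1, H3f3b, H2ac6 and H4c8. That of H2bc9 had a peak in 1 library, and 4 had none. A region merges the peaks of all libraries, so it can hold a peak where a gene was not called. H3f3b and H1f1 were called as genes in no BN1 or ME library. Their nearest BN1 peaks lay 1239 to 1244 bp and 1927 to 1960 bp from the gene ends. The weakest calls in all Control libraries were at H1f0, with percentiles 27.529, 33.844 and 26.2, and at H2bc6, where library 2 stood at a low percentile through a second, weaker peak. The third weakest was H4c2, with percentiles of 92.366, 91.054 and 91.528.

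BN1 called the fewest histone genes. Its libraries called 16, 8 and 11 members, and 8 (10.8%) were called in all 3, beside 10.1% of all genes. These 8 were H2az1, H2az2, H1f2, H4c1, H3c1, H4c8, H2ac6 and H2bc4, and all were called in the other 9 libraries too, beside 10% of all genes called in all 12. Against Control, 28 of the 45 members called in either group (62.2%) were lost, beside 60.2% of genes, and 0 were gained (0.021% of genes), so the count of lost members was near that of all genes. Of the 28, 26 lie on chromosome 13. They were 6 H2A, 7 H2B, 5 H3, 5 H4 and 4 H1 genes and H3f3b. The remaining 9 members called in Control had a peak in 1 or 2 BN1 libraries or, at H2ac15, in 1 Control library only.

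Genes with strong Control peaks were mostly kept in BN1, and the histone genes were not. Of the 44 members called in all Control libraries, 39 fell in the strongest of 5 equal bins of genes by Control signal. In that bin 23 of the 39 members (59.0%) were lost in BN1, beside 16.1% of the genes, and 8 (20.5%) were called in all 3 BN1 libraries, beside 71.5%. Members that shared a peak were counted separately. As regions, over all bins, 17 of the 30 histone regions called in all Control libraries had no BN1 peak. That count was not made for other regions, so it shows no contrast with them. The signal is taken to be an area, which would grow with width, so the genes were also binned by the deposited −log10 p: the top bin then held 24 members, of which 11 (45.8%) were lost, beside 11.7% of genes, and the bin below it held 14, of which 11 (78.6%) were lost, beside 47.3%. In the top signal bin ME called 36 of 39 members (92.3%), beside 93.1% of genes, and MA9 called 39 of 39, beside 98.9%.

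With lists cut to the same number of peaks, BN1 again lost most of the members that Control called. Taking the 3011 strongest peaks of every library, Control called 42 members in all 3 libraries (11.5% of genes), BN1 8 (9.21%), MA9 37 (12.3%) and ME 32 (12.3%). BN1 then lost 27 of 43 members (62.8%), beside 16.4% of genes, while MA9 lost 4 (H4c12, H4c6, H4c4 and H4c2), beside 12.6%, and ME lost 5, beside 14.4%. BN1 lost 22 of 38 members against MA9 (57.9%), beside 14.3%, and 17 of 37 against ME (45.9%), beside 9.02%.

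With the strongest 3011 peaks taken by −log10 p, a choice made after seeing the data, MA9 and ME called fewer members. All 3 libraries then called 35 in Control (12.8% of genes), 8 in BN1 (8.91%), 22 in MA9 (12.6%) and 17 in ME (12%). Against Control, BN1 lost 22 of 37 (59.5%), beside 18.3%, MA9 lost 9 (24.3%), beside 14.5%, and ME 10 (27.0%), beside 17.0%. BN1 lost 9 of 26 members against MA9 (34.6%), beside 9.98%, and 6 of 26 against ME (23.1%), beside 7.84%.

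**Figure D2:**
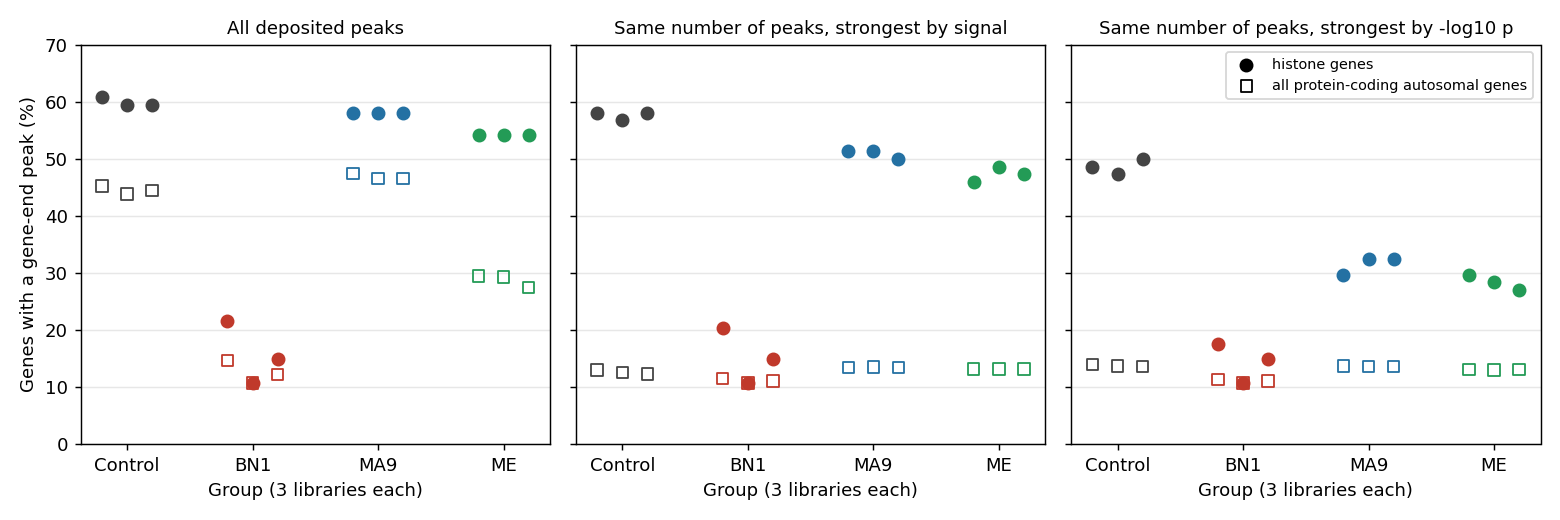
Percentage of the 74 histone genes (filled circles) and of all 20661 genes (open squares) with a gene-end peak in each library, with all deposited peaks (left) and with the 3011 strongest peaks of each library by signal (middle) or −log10 p (right). In the middle the histone circles lie between 45.9% and 58.1% in Control, MA9 and ME and between 10.8% and 20.3% in BN1; on the right they are at 47.3% or more in Control, between 27.0% and 32.4% in MA9 and ME and between 10.8% and 17.6% in BN1.

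MA9 and ME called most of the members that Control called. MA9 called 43 in each library and in all 3, beside 45.4% of genes, and ME 40, beside 26.9%. Against Control, MA9 lost 1 member (H2bc6; 3.58% of genes were lost) and gained 0 (6.8% of genes), and ME lost 4 (H3f3b, H2bc6, H1f6 and H1f1; 28.5% of genes were lost) and gained 0 (0.605% of genes). ME thus lost 8.89% of its tested members. BN1 against MA9 lost 27 members, beside 62.1% of genes, and BN1 against ME lost 24 (60.0%), beside 37.9%. MA9 against ME gained 3 members (H3f3b, H1f6 and H1f1), beside 30.8% of genes.

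Several of these losses turned on the ends of the gene span. With start sites of 68 members in place of span ends (peak within 0.5 kb), all 3 libraries called 39 members in Control (44.2% of genes), 6 in BN1 (10.6%), 40 in MA9 (46.0%) and 39 in ME (28.1%). BN1 lost 25 (60.4% of genes), MA9 lost 0 (3.25%) and gained H1f0 (5.71%), and ME lost H1f1 (27.4%) and gained H1f0 (0.503%). H3f3b, which encodes H3.3, had a start-site peak in all 12 libraries, at percentiles of 93.68, 55.3 and 57.34 in BN1 and 98.13 to 98.39 in ME. H2bc6 had a start-site peak in every Control, MA9 and ME library and in none of BN1. H1f1, a linker histone gene, had a start-site peak of percentile 95.26, 91.84 and 94.68 in Control and 63.12, 68.45 and 63.89 in MA9, and none in ME or BN1. H1f0, the gene of H1.0, had none in Control or BN1, and stood at 75.95, 75.43 and 74.75 in MA9 and 19.43, 25.22 and 5.336 in ME. Its gene-end peaks in Control lay at its other end.

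A further 29 members were called in no library, beside 49.0% of genes. All 10 chromosome 3 members lay in a stretch of 127.84 kb with no peak in any library, together with Sv2a, Bola1 and Fcgr1. On chromosome 13, 10 members (H2bc15, H1f5, H3c11, H2ac22, H2bc22, H2bc23, H2ac23, H4c17, H4c18 and H2ac24) lay in a stretch of 98.309 kb, H1f4 in one of 96.014 kb, and H2bc1 and H2ac1, the testis H2B and H2A genes, in one of 173.9 kb. H2ax, the gene of the DNA damage variant H2A.X, lay in one of 111.86 kb. H1f7, H1f8, H1f10, H3f3c and H3f4 lay in the remaining ones, of 11.519 to 208.09 kb. Some of these promoters are copied in part: 94.0% of the 50-base runs of the H4c17 promoter recur in that of H4c18, 74.1% of those of H3c14 in H3c15 and 67.7% of those of H2ac18 in H2ac19. Among entries of genes called nowhere, 14 of 26 shared a 50-base run with another member entry. So did 10 of the 29 entries of genes lost in BN1 and 0 of the 6 of genes called in all 12 libraries. Neighbouring entries that overlap are included in these counts. Among the genes lost in BN1, all such entries but those of H4c11 and H4c12 shared runs with an overlapping neighbour. H4c11 and H4c12 shared 11.6% of their runs. Whether unplaced reads account for any gap was not tested, and values at copied promoters are uncertain.

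The widths of the Control peaks set the histone genes apart as a description. For the 40 members called in all 9 Control, MA9 and ME libraries, the median width of the strongest gene-end peak was 2030, 1970 and 2108 bp in Control, 1591, 1438 and 1427 bp in MA9 and 1010, 1003 and 964 bp in ME. Over the 5467 genes called in those 9 libraries it was 653 to 699 bp in Control, 838 to 917 bp in MA9 and 397 to 423 bp in ME. The direction between Control and MA9 was therefore opposite: the median fold of Control over MA9 was 1.45 for the histone genes, 0.797 for all genes and 0.953 for genes of the strongest Control bin. In 29 of the 40 members (72.5%) every Control peak was wider than every MA9 peak, beside 12.5% of genes, and in 38 (95.0%) wider than every ME peak, beside 76.2%. Among the 1655 such genes of the strongest Control bin these shares were 23.9% and 83.1%. The median Control width of those 1655 genes was 1036 to 1085 bp. Members that shared a peak were counted separately in these widths and shares, with up to 5 members on 1 Control peak.

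**Figure D3:**
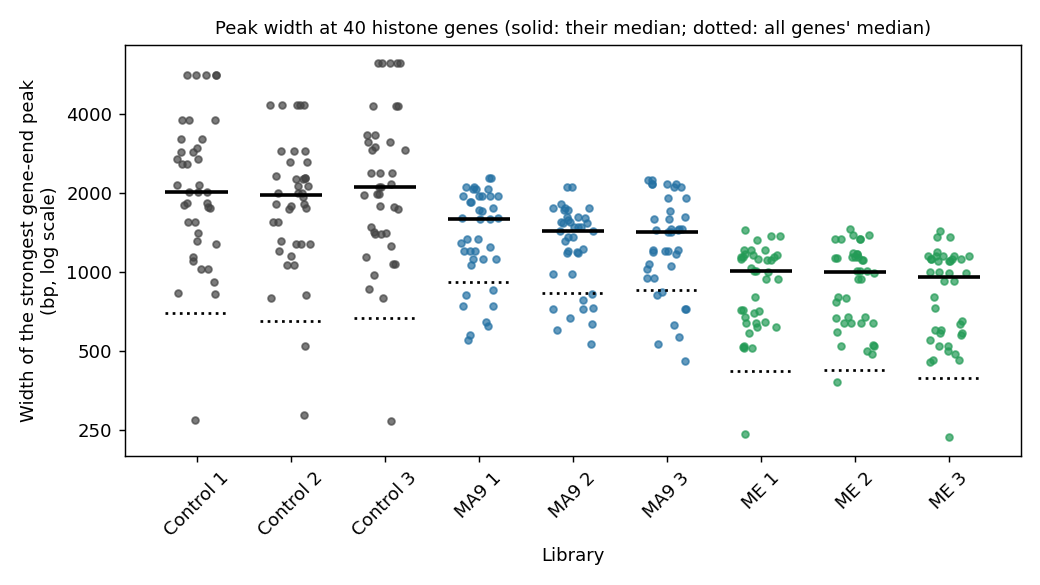
Width in bp (log axis) of the strongest gene-end peak at each of the 40 histone genes called in all Control, MA9 and ME libraries, with the median of these genes (solid) and of all 5467 such genes (dotted). The solid lines fall from Control to MA9 to ME, while the dotted lines are highest in MA9.

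The peaks often covered whole genes. Of 35 called members of at most 1 kb, 29 to 31 were covered end to end in each Control library, 24 to 26 in MA9 and 7 to 10 in ME. Of the 28 other genes of that length, 1 was covered whole in each Control library, 3 in MA9 and 2 in ME. At H3c3, an H3 gene, the strongest peak was 3230, 2630 and 3333 bp wide in Control, 1204, 1184 and 1205 bp in MA9 and 1016, 1009 and 998 bp in ME. At H2az1 it was 835, 820 and 797 bp wide in Control, 1757, 1817 and 1028 bp in MA9 and 675, 768 and 554 bp in ME, so there the MA9 peaks were the wide ones. The summits of start-site peaks lay a median of 74 bp upstream of the start in Control, 57 bp in BN1 and 27.5 bp in MA9, and 12 bp downstream in ME. These medians rest on 117, 28, 120 and 117 pairs of a member and a library, so they do not compare the same start sites. A peak shared by several start sites entered once for each.

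Where every library had a peak, the strength of histone regions could be compared by rank. Of 2407 regions called in all 12 libraries, 7 lay at members. Ranks by signal were turned into normal scores (0 at the middle rank, higher for stronger peaks) and compared with limma, with Benjamini-Hochberg adjustment over all 2407 regions. In BN1, 5 of the 7 ranked lower than in Control (29.9% of all regions did) and 0 ranked higher (36.1%). These 5 ranked between 16 and 92 in the Control libraries, so they had little room to rank higher. The shares of all regions, here and below, were not matched for Control rank. H1f2, which encodes a somatic linker histone, ranked 16, 22 and 23 in Control, 57, 44 and 58 in MA9 and 60, 67 and 97 in ME, and 1650, 2004 and 1900 in BN1. The BN1 ranks lay in the weaker part of the list, far outside the range of the other 9 libraries. Within 0.5 kb of the H1f2 start site, 1 BN1 library had a peak, beside all 3 libraries of each other group. In the other BN1 libraries the ranked peak lay elsewhere in the merged region, so these ranks do not compare the same site. The BN1 minus Control difference was -3.15 ± 0.12 (SE) normal score units (adjusted p = 7.96e-09).

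The 3 other chromosome 13 regions ranked lower in BN1 by less. H4c1 with H3c1 and H1f1 ranked 29, 35 and 35 in Control and 443, 792 and 813 in BN1 (-1.625 ± 0.113, adjusted p = 7.35e-07). H2ac6 with H2bc4 ranked 52, 77 and 57 in Control and 556, 917 and 889 in BN1 (-1.50 ± 0.11, adjusted p = 1.23e-06). H4c8 ranked 86, 92 and 89 in Control and 563, 739 and 905 in BN1 (-1.27 ± 0.10, adjusted p = 1.24e-06). In these regions the BN1 ranks did not overlap those of any other group. H3f3b ranked 79, 43 and 43 in Control and 265, 1255 and 1381 in BN1, where 1 library stood nearer to MA9 (-1.69 ± 0.29, adjusted p = 0.000488).

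The H2A.Z genes did not pass the test between BN1 and Control. H2az2 ranked 836, 970 and 733 in Control and 508, 1252 and 1484 in BN1 (-0.23 ± 0.22, adjusted p = 0.373), and without BN1 library 1 the difference was -0.56 (adjusted p = 0.000376). H2az1 ranked 1042, 1054 and 1178 in Control and 1041, 755 and 689 in BN1 (0.29 ± 0.12, adjusted p = 0.0536), but passed without BN1 library 1 (0.41, adjusted p = 0.00518) or MA9 library 3 (adjusted p = 0.0363). Ranked by −log10 p in place of signal, the BN1 minus Control differences were smaller at H1f2 (-1.71, adjusted p = 1.42e-07), H2ac6 with H2bc4 (-0.87, adjusted p = 0.000102) and H4c8 (-0.385, adjusted p = 0.0424). H4c1 then did not pass (-0.35, adjusted p = 0.12), H2az2 was lower (-1.27, adjusted p = 7.26e-06) and H2az1 turned sign without passing (-0.063, adjusted p = 0.736).

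**Figure D4:**
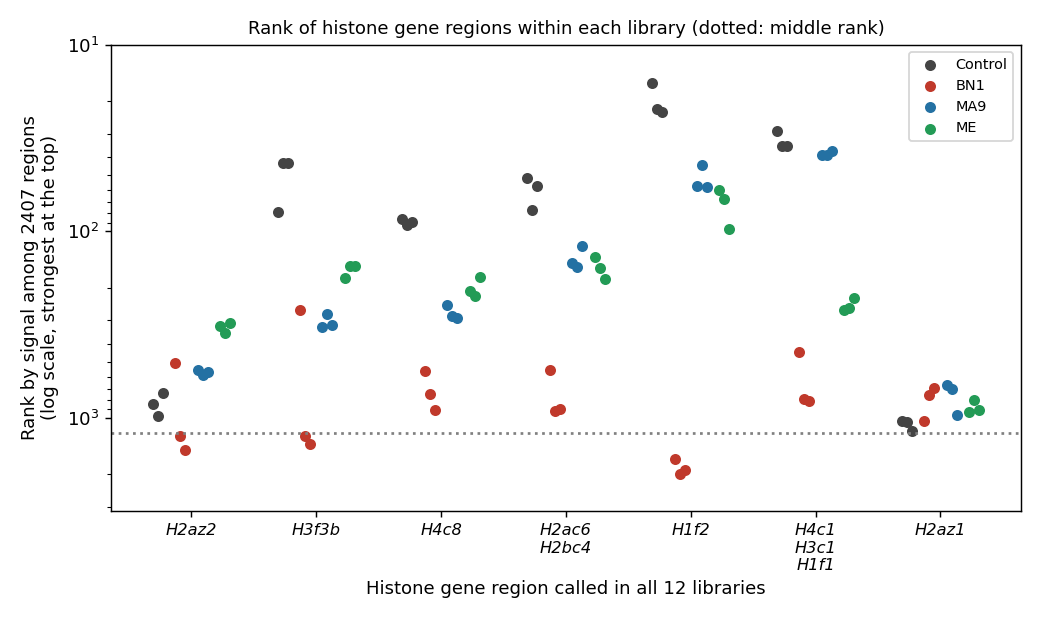
Rank by deposited signal among the 2407 regions called in all 12 libraries (log axis, strongest at the top) of the 7 histone gene regions, with 1 point per library and the middle rank dotted. H1f2 lies between 16 and 97 in the Control, MA9 and ME libraries and between 1650 and 2004 in BN1.

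Against Control, 4 of the 7 regions ranked lower in MA9 (32.1% of regions did) and 1 higher (28.4%), and 4 lower (29.0%) and 1 higher (34.6%) in ME. In MA9 H1f2 differed by -0.38 ± 0.12 (adjusted p = 0.0157; 0.0556 without Control library 1) and H4c8 by -0.58 ± 0.10 (adjusted p = 0.000433). By −log10 p the H1f2 difference was -0.69 (adjusted p = 0.000192), that of H4c8 was 0.037 (adjusted p = 0.842), and H4c1 was higher in MA9 (0.705, adjusted p = 0.00583), where by signal it did not pass (-0.061, adjusted p = 0.666). H2az1, the region higher in MA9, differed by 0.35 ± 0.12 (adjusted p = 0.0267). That call was lost without Control library 2 or 3 or MA9 library 1 or 2 (adjusted p of 0.0514 to 0.0957), with centred log2 signal (adjusted p = 0.0505) and by −log10 p (0.112, adjusted p = 0.551). H3f3b differed by -0.88 ± 0.29 in MA9 (adjusted p = 0.0239), a call lost without Control library 2 or 3 or MA9 library 1 or 3 (adjusted p of 0.0585 to 0.0676). In ME the H4c1 region ranked 265, 257 and 228 and differed by -0.95 ± 0.11 (adjusted p = 3.73e-05), a direction that reversed by −log10 p (0.60, adjusted p = 0.014). H2az2 ranked 322, 351 and 311 in ME (0.715 ± 0.22, adjusted p = 0.0156), a call lost without Control library 2 (adjusted p = 0.0549) and by −log10 p, where the sign turned (-0.29, adjusted p = 0.0764). Between the MLL fusions, 1 region passed: H4c1, at 39, 39 and 37 in MA9, ranked higher there (0.89 ± 0.11, adjusted p = 0.00016; 16.0% of regions ranked higher in MA9 and 25.9% lower). By −log10 p that call was lost (0.107, adjusted p = 0.793). BN1 ranked lower than MA9 in 6 of 7 regions (27.5% of regions) and higher in 0 (34.9%), and lower than ME in 6 (21.7%) and higher in 0 (25.0%). Against MA9 the calls at H3f3b (adjusted p = 0.0328) and H2az2 (adjusted p = 0.0446) were lost without BN1 library 2 or 3 and without other single libraries (adjusted p up to 0.123 and 0.165).

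Leaving BN1 out gave a larger set, with 27 histone regions among 7016 called in all 9 libraries of Control, MA9 and ME. This fit was chosen after seeing the data, and its shares of all regions were again not matched for Control rank. In MA9, 19 of the 27 ranked lower than in Control (38.4% of regions did) and 3 higher (34.1%), with a median difference of -0.49, beside -0.04 for all regions. In ME, 22 ranked lower (34.5%) and 3 higher (40.2%), with a median of -0.76, beside 0.05. The 3 higher ones were the same in both: H3f3a, 1 of the H3.3 genes, and both H2A.Z genes, H2az1 and H2az2. H3f3b, the other H3.3 gene, was lower in both, by -0.72 ± 0.07 in MA9 (adjusted p = 3.78e-05) and -0.39 ± 0.07 in ME (adjusted p = 0.00123). H3f3a differed by 0.795 ± 0.068 in MA9 (adjusted p = 1.6e-05) and 0.47 ± 0.07 in ME (adjusted p = 0.000305). The region of H2bc9 and H3c7 differed most, by -1.77 ± 0.08 in MA9 (adjusted p = 6.63e-07) and -1.92 ± 0.08 in ME (adjusted p = 3.81e-07). All 22 regions lower in ME held replication-dependent genes except that of H3f3b. MA9 and Control did not differ beyond the test at H4c1 (-0.014 ± 0.045, adjusted p = 0.799) or H2ac10 with H3c8 (-0.04 ± 0.20, adjusted p = 0.873). Nor did they at H2bc14 (adjusted p = 0.15), H4c9 with H2ac11 and H2bc11 (adjusted p = 0.389) or the second region of H2ac4 and H3c2 (adjusted p = 0.819). In ME, 2 regions did not pass: that of H4c9, H2ac11 and H2bc11 and the second of H2ac4 and H3c2. By −log10 p, 21 were lower and 2 higher in MA9 (38.6% and 34.5% of regions), and 20 lower and 2 higher in ME (39.2% and 36.1%). The 2 higher ones were then H3f3a (0.49 in MA9, adjusted p = 0.000183, and 0.51 in ME, adjusted p = 0.000134) and H4c1 (0.63, adjusted p = 5.74e-05, and 0.56, adjusted p = 0.000119). H2az1 did not pass in either (adjusted p of 0.0788 and 0.161), and H2az2 did not pass in MA9 (-0.07, adjusted p = 0.37) and was lower in ME (-0.22, adjusted p = 0.0162).

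**Figure D5:**
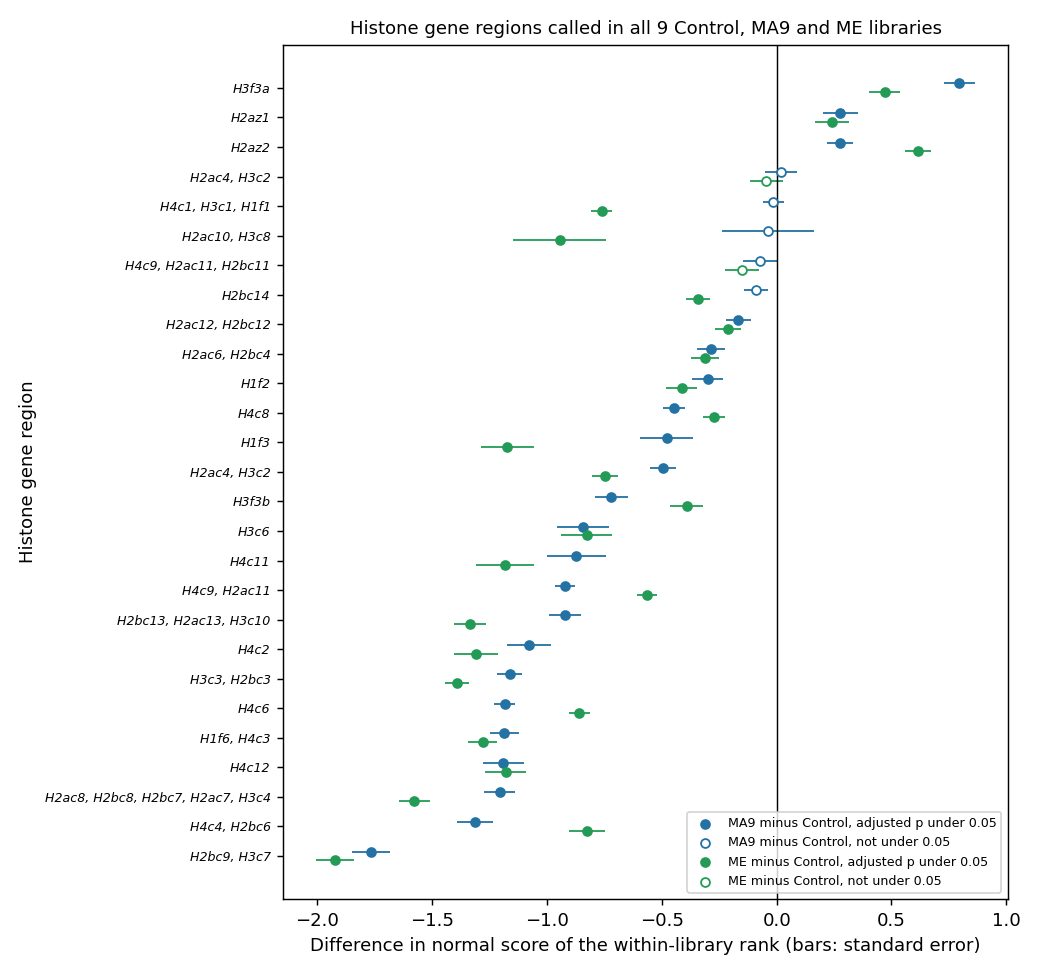
Difference from Control in the normal score of the rank by signal (x axis, bars are standard errors) for the 27 histone regions called in all Control, MA9 and ME libraries, ordered by the MA9 difference, filled where the adjusted p is under 0.05. H3f3a, H2az1 and H2az2 lie to the right of 0 in both, and H2bc9 with H3c7 lies farthest to the left, at -1.77 and -1.92.

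The bases covered by peaks in these 27 regions also differed. On the log2 scale of covered bp, MA9 had less than Control in 15 regions (10.6% of all regions) and more in 2 (43.2%), and ME had less in 24 (67.7%) and more in 0 (3.88%). The median difference of MA9 from Control was -0.33 over the histone regions and 0.23 over all regions, and that of ME was -0.99 and -0.53.

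Other genes of the histone pathway were given from lists chosen with earlier results known, as counts of genes called in all 3 libraries, beside 43.0% of all genes in Control, 10.1% in BN1, 45.4% in MA9 and 26.9% in ME. Of 13 genes of histone pre-mRNA processing, all 3 libraries called 13 in Control, 5 in BN1, 13 in MA9 and 10 in ME. BN1 lost 7 of them (60.2% of all genes tested were lost), among them Lsm10 and Lsm11 of the U7 snRNP, and called Slbp, the stem-loop binding protein, and Casp8ap2 in every library. Of 15 transcription factors and kinases, 13, 7, 12 and 12 were called and BN1 lost 3, and Npat, the coactivator of histone genes, was called in every library. Of 19 chaperones, 18, 9, 18 and 15 were called and BN1 lost 7, among them Chaf1a and Chaf1b. Of 11 genes of H2A.Z exchange, 9, 3, 8 and 6 were called and BN1 lost 4. Of 20 S-phase replication genes, 16, 6, 16 and 15 were called and BN1 lost 9, among them Mcm2, Mcm3, Mcm5 and Mcm6, while Pcna, Mcm4 and Mcm7 were called in every library. MA9 lost 0, 0, 0, 1 and 0 genes of these lists and ME lost 1, 1, 3, 2 and 1. With the 3011 strongest peaks by signal of each library, Control, BN1, MA9 and ME called 4, 5, 4 and 6 of the processing genes and 4, 6, 8 and 8 of the factors and kinases. They called 7, 8, 10 and 9 of the chaperones, 5, 3, 4 and 4 of the H2A.Z exchange genes and 6, 6, 7 and 6 of the S-phase genes. At equal length the BN1 count was below that of Control in 1 of the 5 lists, H2A.Z exchange.

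Counts of called markers of other cell types differed between groups, whose lists also differed in length. Per library, 43.8% to 45.2% of all genes were called in Control and 10.7% to 14.7% in BN1. In MA9 the share was 46.5% to 47.4% and in ME 27.5% to 29.5%. Of 8 erythroid genes 7 were called in each Control library, 0 in BN1 and ME and 1 to 2 in MA9. Of 7 B cell genes 7 were called in Control, 0 in BN1 and ME and 1 in MA9 (Cd79a), and of 6 neutrophil genes 6, 0, 0 and 2 (S100a8 and Ngp). Of 5 promyelocyte granule genes, 0 to 1 were called in Control, 0 to 3 in BN1, 5 in MA9 and 3 to 4 in ME. Of 6 leukocyte genes all were called in Control and MA9, 1 to 2 in BN1 and 2 to 3 in ME; Spi1 was called in every library, and Ptprc, the gene of CD45, in no BN1 or ME library. Of 5 T cell genes only Cd3d was called, in every library, and of 6 genes of other tissues 0 were called. With the 3011 strongest peaks of each library by signal, the counts in Control, BN1, MA9 and ME were 1, 0, 0 and 0 for erythroid genes, 2, 0, 0 and 0 for B cells, 5, 0, 0 and 0 for neutrophils, 0, 0, 0 and 1 for promyelocyte granules and 4, 1, 2 and 2 for leukocytes. All 3 libraries then called 11.5% of all genes in Control, 9.21% in BN1, 12.3% in MA9 and 12.3% in ME. The part of these markers in the histone gene results was not tested.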

How the data were processed

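ATAC-seq peak lists of 12 libraries were used, 1 per library. Genrich, Bowtie2 2.5.4, deepTools 3.5.1 and Picard 3.2.0 are named, without options, for mouse GRCm38 (mm10), per the submitters' processing notes. The deposited peak signal was at least 200.01 in every library and is taken to be the area statistic of Genrich, which the values fit but no source states. Peak significance was deposited as −log10 p and −log10 q. The deposited score, a display value, was left out. No column has a common scale between libraries, so percentiles and ranks within a library were used. Autosomal peaks were matched to gene spans of the RefSeq GRCm38.p6 table (within 1 kb of an end) and, where RefSeq promoter entries exist, to start sites. Overlapping peaks (1 bp) were merged into regions. The histone genes, gene lists and marker lists were chosen with earlier results of these data known. Every member is accounted for by its calls; values per library are given for called single genes, the 10 strongest Control regions, regions called in all 12 libraries, genes gained in a leukaemia and the 3 weakest calls, and promoter letters for up to 6 members. Ranks were compared with limma 3.58.1 in R 4.3.3 on normal scores, in 1 fit of all 12 libraries, with Benjamini-Hochberg adjusted p under 0.05. The fit was tested on simulated data. Alternatives are given in the closing section.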

Additional observations from a re-analysis of the deposited data

How the results depend on the processing

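The calls have no test and depth is unknown, so a lost gene may lie just under the calling threshold; the cause of the changes below was not tested. The count of members lost in BN1 against Control was 22 to 41 over the alternatives tried, with 28 as the main value. The counts of 1 lost in MA9 and 4 lost in ME against Control were 0 and 2 (on chromosome 13, 0 and 1) with a window of 0.5 kb or 2.5 kb. With peaks overlapping the gene span they were 0 and 1 (0 and 1 on chromosome 13; 0 single genes lost in BN1 and 0 in ME), with 1 gained in MA9 and 1 in ME. With start sites, chosen after seeing the data, they were 0 and 1 (0 and 1 on chromosome 13; 0 single genes lost in BN1 and 0 in ME), with 1 gained in each. MA9 gained 1 member against ME, in place of 3, with the 2.5 kb window, the gene span and start sites. With −log10 q of 5 or more, which shortens the ME and BN1 lists most, all 3 libraries called 0 members in BN1 and 10 in ME, and ME lost 29 against Control (28 on chromosome 13), BN1 lost 41 against MA9 and 10 against ME, MA9 gained 29 against ME and 1 against Control, and of those lost against Control 0 were on chromosome 13 in MA9, with 1 single gene in MA9 and 4 in BN1. With lists of equal length MA9 lost 4 against Control (4 on chromosome 13) and 2 against ME, and BN1 lost 1 single gene. With lists of equal length by −log10 p, chosen after seeing the data, all 3 libraries called 22 members in MA9 and 17 in ME, MA9 lost 9 and ME 10 against Control (8 and 9 on chromosome 13), 1 single gene was lost in BN1 and 1 in MA9, BN1 lost 9 against MA9 and 6 against ME, and MA9 lost 1 against ME. With strength by −log10 p, ME called 22 of the 24 members in the strongest bin, in place of 36 of 39.

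For the 7 regions called in all 12 libraries, centring log2 signal on its median gave 1 higher in BN1 and 0 higher in MA9 against Control, 2 lower in ME against Control and 2 lower in MA9 against ME. By −log10 p, 0 were higher in MA9 than in ME, and 11 of 42 differences turned sign, of which 3 had passed by signal: H4c8 in MA9 against Control (0.037, adjusted p = 0.842), H2az2 in ME (-0.29, adjusted p = 0.0764) and H4c1 in ME (0.60, adjusted p = 0.014). Of the other 8, H4c1 in MA9 against Control then passed (0.705, adjusted p = 0.00583). With 2 groups only, 2 were higher in MA9 and 2 in ME than in Control and 3 lower in MA9 than in ME. BN1 was then lower than MA9 in 4 regions and lower than ME in 4, in place of 6 and 6. Requiring overlap over 0.5 of the shorter peak left 4 member regions, of which 3 were lower in BN1, 2 in MA9 and 2 in ME against Control, 0 higher in ME, and 3 lower in BN1 against MA9 and 3 against ME. With gene-end regions only, 1 was higher in BN1. By log2 covered bp, 2 were lower in MA9 and 0 higher in ME than in Control, 4 were higher in MA9 than in ME, and H2az2 in ME reversed (-0.06, adjusted p = 0.836). In the 9-library set ranked by −log10 p, 2 regions were higher in MA9 than in ME, in place of 9. Leaving out 1 library at a time gave 0 to 1 higher in BN1, 0 to 2 in MA9 and 0 to 2 in ME against Control, and 0 to 3 lower in MA9 than in ME; the calls at the ends of these ranges turned on Control 2 or 3, BN1 1 or any MA9 library. H1f2 in BN1 against Control passed under each alternative in which it was tested.

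Libraries with the same replicate number showed no shared deviation from their group means: they correlated at -0.06 to 0.083 over 18 pairs, with 0 over 0.1. Whether libraries were made in pairs cannot be told from this. With a replicate block 5 regions were lower and 0 higher in BN1, 4 lower and 1 higher in MA9 and 4 lower and 1 higher in ME against Control, and H1f2 in BN1 had an adjusted p of 1.52e-07 (limma).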
